A study of Mus musculus with 6 samples.

Results

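Serum amyloid A3 (Saa3) and 7 further genes of the acute phase response (Saa1, Saa2, Lcn2, Hp, Cp, Slpi and Ptx3) were followed in M2-polarized macrophages (Mφs) after blocking of a tRNA fragment. They were taken from the table by gene symbol, and make up 8 of its 41549 genes. The genes were chosen by their counts in the antisense libraries against the control libraries, so their values in that comparison are a description and carry no test.

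The cells were bone marrow-derived Mφs of wild type C57BL/6N mice, aged 10 to 12 weeks and differentiated for 7 days with 10 ng/ml of macrophage colony-stimulating factor. The Ctr group (3 libraries) received 50 pmol of a control oligonucleotide by lipofection, and the αGlu group (3 libraries) received 50 pmol of a locked nucleic acid antisense to 5′tRF-Glu(CTC), the piece that is cut from the 5′ side of a tRNA for glutamate. Both groups were then polarized toward the anti-inflammatory M2 state for 48 h with IL-4 and IL-13, each at 10 ng/ml. The paper describes the replicates as independent experiments. Whether a Ctr and an αGlu library came from the same animal or day is not stated, and the main fit left them unpaired. No library of untransfected or unpolarized cells was analysed here, and the fragment itself was not measured in these libraries. The agent that defines the αGlu group and the stretch of the fragment given as its target follow, with the complementary bases of the target in capitals.

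Antisense oligonucleotide: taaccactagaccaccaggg
Target: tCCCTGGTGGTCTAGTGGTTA

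The acute phase response is the change in circulating proteins that follows infection or tissue injury. Most of these proteins are made by the liver under the control of IL-6, IL-1β and TNF, through STAT3, NF-κB and the C/EBP factors. Some are also made locally. Saa3 is the serum amyloid A gene that mouse Mφs and fat cells express, whereas Saa1 and Saa2 encode the plasma proteins released by the liver. Lipocalin 2 (Lcn2) withholds iron from bacteria by binding their siderophores, haptoglobin (Hp) captures free hemoglobin, ceruloplasmin (Cp) is a copper-carrying ferroxidase, secretory leukocyte peptidase inhibitor (Slpi) blocks neutrophil serine proteases, and pentraxin 3 (Ptx3) is a soluble pattern recognition molecule.

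Total counts ranged from 22174157 to 25175519 in Ctr and from 17912831 to 30386653 in αGlu, with reads in 14539 to 15295 genes. In log2 CPM across genes, αGlu 1 correlated with αGlu 2 and αGlu 3 at r = 0.929 each, whereas αGlu 2 and αGlu 3 reached 0.992 and the Ctr pairs 0.978 to 0.988. The library αGlu 1 therefore stood apart from its group, and results are given with and without it. No gene of the 11933 that passed the low-count filter was called (0.0%) by edgeR's quasi-likelihood test with thresholds of 0.1 for the adjusted p and of 1 for the size of the log2 fold change, and 2943 of them (24.7%) had an unadjusted p under 0.05. limma-voom also called 0, with 3101 genes under that unadjusted p, and DESeq2 called 1117 of 13742 (8.13%). Without αGlu 1, edgeR called 2290 of 12340 genes (18.6%). The filter was rerun for that fit, so a gene could pass it through αGlu 2 and αGlu 3 alone. αGlu 1 was left out because of its values in these same data, and only αGlu 2 and αGlu 3 remained in the group. The p-values and calls of that fit are therefore descriptions and no separate support.

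The serum amyloid A genes lie together on chromosome 7 (GRCm38). Saa3 (ENSMUSG00000040026) occupies chr7:46711998-46715700 and Saa1 (ENSMUSG00000074115) chr7:46740497-46742980, both on the minus strand. Saa2 (ENSMUSG00000057465) lies at chr7:46751790-46754313 on the plus strand. The other genes are scattered: Lcn2 (ENSMUSG00000026822) at chr2:32384633-32388252, Slpi (ENSMUSG00000017002) at chr2:164354070-164389095, Cp (ENSMUSG00000003617) at chr3:19957054-20009145, Ptx3 (ENSMUSG00000027832) at chr3:66219910-66225805 and Hp (ENSMUSG00000031722) at chr8:109575128-109579172. Counts cover the exons of each gene.

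RefSeq (GRCm38.p6) promoter entries matched 7 of the 8 genes, Hp being the one without. The 250 bases before the start were searched on both strands for C/EBP (TTGCNNAA), STAT (TTCNNNGAA) and AP-1 (TGANTCA) letters and for the NF-κB consensus. All 7 genes held a C/EBP match, as did 9.56% of 32851 promoters of the same length. Cp was searched at 2 starts and held the match at 1 of them. Its other start held the only AP-1 match (6.75% of promoters), beginning at -177. None held the STAT (7.02%) or NF-κB (3.9%) letters, and no matches overlapped. Such a match is a description of letters, not a site or a cause, and a missing one says only that the letters are not in this window. The promoters of the serum amyloid A genes and of Lcn2 are shown 5′ to 3′ on the gene's strand because Saa3 and Lcn2 held the largest fold changes of the 8 genes and Saa1 and Saa2 are close relatives of Saa3, with the C/EBP match in capitals.

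Saa3, chr7:46715677-46715926, minus strand: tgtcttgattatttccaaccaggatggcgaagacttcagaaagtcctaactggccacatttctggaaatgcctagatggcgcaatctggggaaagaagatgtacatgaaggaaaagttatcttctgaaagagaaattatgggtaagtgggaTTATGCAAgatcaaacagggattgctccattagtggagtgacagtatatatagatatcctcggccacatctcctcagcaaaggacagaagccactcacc
Saa1, chr7:46742981-46743230, minus strand: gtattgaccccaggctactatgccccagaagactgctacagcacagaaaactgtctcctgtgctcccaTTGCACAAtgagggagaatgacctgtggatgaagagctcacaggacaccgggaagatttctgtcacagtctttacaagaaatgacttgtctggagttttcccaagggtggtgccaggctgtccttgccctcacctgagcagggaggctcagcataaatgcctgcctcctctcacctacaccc
Saa2, chr7:46751583-46751832, plus strand: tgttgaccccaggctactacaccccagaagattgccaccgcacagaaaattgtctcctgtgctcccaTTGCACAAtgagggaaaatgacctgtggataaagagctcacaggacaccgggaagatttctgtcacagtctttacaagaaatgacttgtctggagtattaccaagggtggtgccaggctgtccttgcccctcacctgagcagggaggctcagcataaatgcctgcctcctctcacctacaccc
Lcn2, chr2:32387740-32387989, minus strand: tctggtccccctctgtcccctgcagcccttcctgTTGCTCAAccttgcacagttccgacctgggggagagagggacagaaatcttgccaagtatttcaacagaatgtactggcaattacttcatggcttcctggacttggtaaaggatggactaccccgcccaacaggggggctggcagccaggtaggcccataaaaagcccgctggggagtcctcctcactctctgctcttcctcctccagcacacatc

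The Saa1 and Saa2 windows were 94.8% identical, so their matches are not separate evidence, while Saa1 and Saa3 shared 48.2%. Counted from the start (-1 is the base just before it), the match began at -99 in Saa3, at -182 in Saa1, at -183 in Saa2 and at -216 in Lcn2. In the genes not shown, it began at -70 in Cp, at -57 in Ptx3 and at -241 in Slpi. Ptx3 thus held the letters too. The starts are those of RefSeq and can differ from the ends of the gene spans given above. The Lcn2 and Slpi windows lie inside those spans.

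Saa3 was barely expressed in Ctr and was among the most abundant transcripts in αGlu 2 and αGlu 3. It was counted with 103, 110 and 124 reads in Ctr 1, 2 and 3, and with 180, 429208 and 338708 reads in αGlu 1, 2 and 3. As CPM, scaled here to library sizes with TMM factors, these were 4.68, 4.60 and 5.75 in Ctr and 10.3, 13511 and 12423 in αGlu. Every αGlu library was above every Ctr library, but αGlu 1 stood 2.06 times above the Ctr mean whereas αGlu 2 and αGlu 3 stood 2697 and 2480 times above it. Per transcript length (TPM), Saa3 ranked 7 among all genes in both of these libraries, 6776 in αGlu 1, and between 8243 and 8706 in Ctr. Its share of all reads was 1.41% (95% Wilson interval 1.408 to 1.417) in αGlu 2 and 1.33% (1.324 to 1.333) in αGlu 3, against at most 0.00100% in the other libraries. Intervals and detection limits cover counting error only. The fitted log2 fold change was 10.75 ± 2.52 (SE), the highest of the 11933 genes, and 11.33 ± 0.18 without αGlu 1. With limma-voom it was 7.48.

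The liver-type serum amyloid A genes had reads in αGlu 2 and αGlu 3 and in no other library. Saa1 was counted with 0 reads in all 3 Ctr libraries and in αGlu 1, with 424 in αGlu 2 and with 214 in αGlu 3. This corresponded to 13.3 and 7.85 CPM in the last 2, whereas 0 reads in αGlu 1 allow up to 0.172 CPM. Saa1 thus stood at least 188-fold higher in the pooled αGlu libraries than in Ctr, taking 3 counts over the whole Ctr group as the floor. Saa2 had 9 reads in αGlu 2, 5 in αGlu 3 and 0 elsewhere, at least 4.12-fold higher with the same pooling and floor. Saa1 reads amounted to 0.988 and 0.632 per 1000 Saa3 reads in αGlu 2 and αGlu 3. The coding sequences of Saa1 and Saa3 were 74.5% identical and those of Saa1 and Saa2 95.1% identical. Of 560 windows of 50 bases in the Saa1 transcript, 9 (1.61%) also occurred in Saa3 and 74 (13.2%) in Saa2. Seen from the Saa3 transcript, 9 of its 506 windows (1.78%) occurred in Saa1 and 0 in Saa2. The sources used here do not give how reads that fit several genes were counted. Hence the Saa1 and Saa2 values are uncertain, and the part of Saa3 reads in them was not tested.

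Lcn2, the siderophore-binding protein, was low and even in Ctr. Its counts were 13, 13 and 12 in Ctr 1, 2 and 3, and 0, 3352 and 1698 in αGlu 1, 2 and 3. In CPM, Ctr lay between 0.543 and 0.591, αGlu 2 at 105.5 and αGlu 3 at 62.3. Since αGlu 1 was below all Ctr libraries, the groups overlapped even though αGlu 2 and αGlu 3 stood 187 and 111 times above the Ctr mean. The fitted log2 fold change was 6.63 ± 1.92, rank 12 of all genes tested, and 7.20 ± 0.30 without αGlu 1. It was 4.44 with limma-voom.

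The carriers of hemoglobin and copper both stood highest in αGlu 2 and αGlu 3 but parted in αGlu 1. Hp had 1.95, 1.63 and 1.25 CPM in Ctr 1, 2 and 3, and 0.860, 37.9 and 23.9 CPM in αGlu 1, 2 and 3. As with Lcn2, αGlu 1 was the lowest of all 6 libraries for Hp. The log2 fold change of Hp was 3.70 ± 1.17, and 4.25 ± 0.26 without αGlu 1. Cp had 2.00, 1.17 and 2.51 CPM in Ctr and 3.84, 36.9 and 53.95 CPM in αGlu. Here every αGlu library was above every Ctr library, with a log2 fold change of 4.07 ± 0.97, and 4.59 ± 0.28 without αGlu 1. Cp was also higher in αGlu 3 than in αGlu 2, at an αGlu 2 to αGlu 3 ratio of 0.684, whereas the ratio lay between 1.09 and 1.70 for Saa3, Saa1, Saa2, Lcn2, Hp and Slpi.

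Slpi, the protease inhibitor, had 0.727, 1.05 and 0.696 CPM in Ctr 1, 2 and 3. Its αGlu values were 2.12, 24.6 and 16.5 CPM. All αGlu libraries exceeded all Ctr libraries, and αGlu 1 stood 2.58 times above the Ctr mean. The log2 fold change was 4.13 ± 0.90, and 4.62 ± 0.25 without αGlu 1. Ptx3 was the exception among the 8 genes. It had 6, 2 and 8 reads in Ctr and 5, 5 and 2 in αGlu, and the ranges overlapped. The ratio of pooled CPM, αGlu over Ctr, was 0.662 with an exact 95% interval of 0.286 to 1.49, so a moderate difference in either direction was not detectable at this depth.

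**Figure D1:**
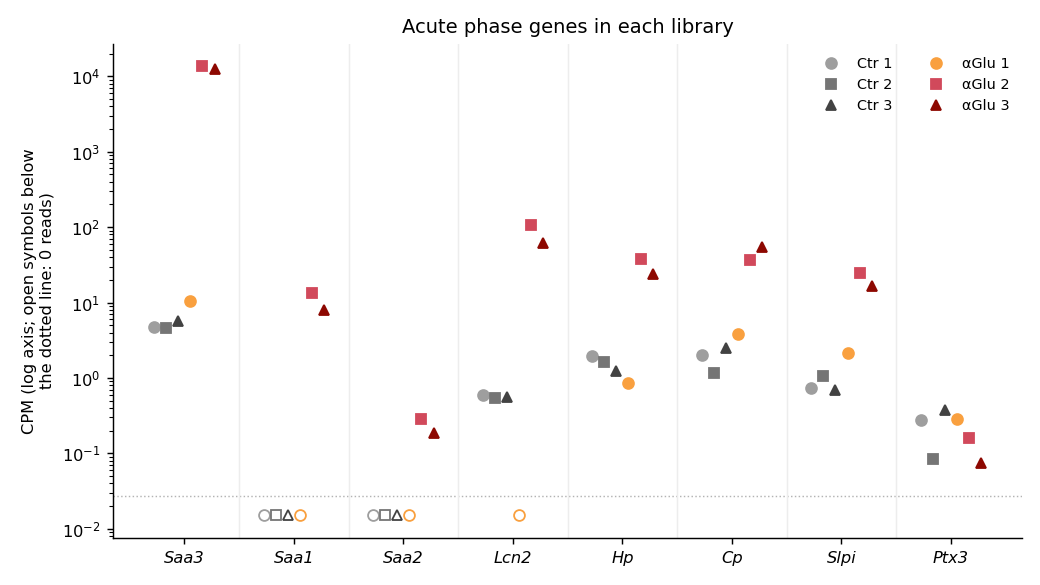
CPM of the 8 genes (log axis) in each of the 3 Ctr and 3 αGlu libraries, with 1 symbol per library and open symbols below the dotted line for 0 reads. In 7 genes αGlu 2 and αGlu 3 sit above every other library, with Saa3 at 13511 and 12423 CPM. In these genes αGlu 1 lies well below that pair. It is above all Ctr libraries in Saa3, Cp and Slpi and below them in Lcn2 and Hp.

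Of the 8 genes, 5 passed the low-count filter (Saa3, Lcn2, Hp, Cp and Slpi) and 3 did not (Saa1, Saa2 and Ptx3). Every αGlu library was above every Ctr library in 3 genes, Saa3, Cp and Slpi, beside 14.2% of the genes tested. Both αGlu 2 and αGlu 3 were above every other library in 7 genes, all but Ptx3, beside 29.7% of the genes tested. These counts follow from how the genes were chosen and nothing is read from them. In αGlu 1, 3 genes were above all Ctr libraries, 2 (Lcn2 and Hp) were below, and Saa1, Saa2 and Ptx3 were within or equal to the Ctr range. The lowest fitted fold change of the 5 was that of Hp, at rank 63, and 0.528% of the genes tested had one as high. RNA was measured in bulk, so fewer cells with a transcript and less RNA per cell cannot be told apart.

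**Figure D2:**
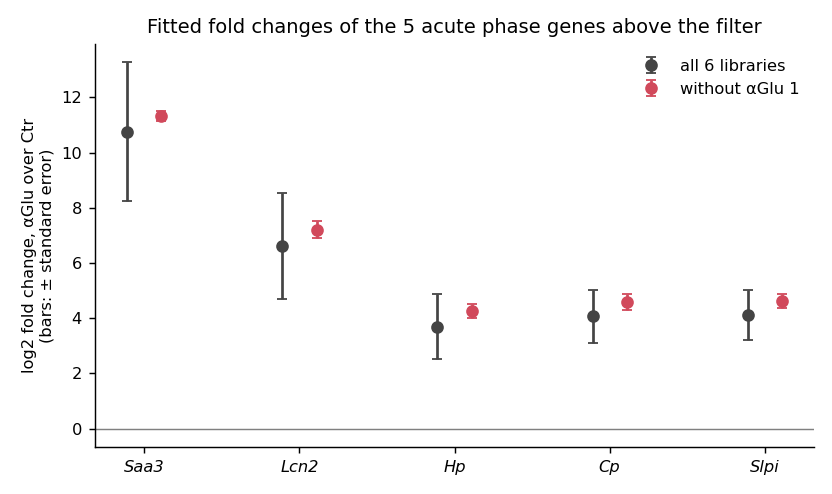
Fitted log2 fold change, αGlu over Ctr, of the 5 acute phase genes above the low-count filter, with all 6 libraries and without αGlu 1 (points, with bars for ± SE). All values lie above 0, and the SE of Saa3 goes from 2.52 to 0.18 when αGlu 1 is left out.

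In length-scaled levels, the order of the genes changed between the groups. In Ctr, Saa3 led with 5.80 ± 0.71 TPM (SD, n = 3), followed by Hp at 3.03 ± 0.71, Slpi at 2.10 ± 0.47, Lcn2 at 0.648 ± 0.040, Cp at 0.597 ± 0.21 and Ptx3 at 0.273 ± 0.16 TPM, with Saa1 and Saa2 listed at 0. The ranges of neighbours were separate between Saa3 and Hp and between Slpi and Lcn2, and overlapped for Hp and Slpi, Lcn2 and Cp, and Cp and Ptx3. In αGlu 2 and αGlu 3, Saa3 reached 16605 and 15670 TPM. Lcn2 came next in both, at 128.8 and 78.0 TPM, ahead of Hp (75.5 and 48.9 TPM) and Slpi (66.8 and 45.9 TPM). Lcn2, below both Hp and Slpi in every Ctr library, was thus above both in this pair, while the ranges of Hp and Slpi again overlapped. Saa1 and Cp exchanged places between the pair: Saa1 stood at 17.3 TPM beside 12.4 for Cp in αGlu 2, and at 10.4 beside 18.5 in αGlu 3. In αGlu 1 the order was Saa3 at 12.3 TPM, then Slpi at 5.58, Hp at 1.66 and Cp at 1.25 TPM, with Lcn2 listed at 0.

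The replicates of Ctr lay closer together than those of αGlu for all 5 genes fitted. The SD of log2 CPM in Ctr was 0.18 for Saa3, 0.05 for Lcn2, 0.31 for Hp, 0.54 for Cp and 0.29 for Slpi, beside a median of 0.14 over all genes tested, so that only Lcn2 varied less than the median gene. In αGlu it was 5.94 for Saa3, 5.74 for Lcn2, 2.90 for Hp, 2.04 for Cp and 1.87 for Slpi, beside a median of 0.20. The spread within αGlu was thus widest for Saa3 and Lcn2, and αGlu 1 was the lowest αGlu library for all 5 genes.

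Likeness between genes was measured as the root mean square difference of log2 CPM over the 6 libraries, after centring each gene on its mean. Among the acute phase genes, Cp and Slpi were closest (0.59), followed by Hp and Slpi (0.79) and Hp and Cp (0.86). Saa3 was nearer to Lcn2 (2.13) than to Slpi (3.26), Hp (3.23) or Cp (3.20). Over all genes tested, those most like Saa3 were Clec4e (0.85), which encodes the receptor Mincle, Il1b (1.07), the cytokine IL-1β, Nrg1 (1.13), a growth factor, Socs3 (1.27), a feedback inhibitor of cytokine signaling, and Timp1 (1.62), a metalloproteinase inhibitor. Clec4e had 2.36, 2.88 and 4.04 CPM in Ctr and 5.79, 2387 and 2145 CPM in αGlu, with αGlu 2, αGlu 3 and αGlu 1 above all Ctr libraries in that order, as for Saa3. Il1b differed from Saa3 in αGlu 1, where it had 0.0574 CPM, below all Ctr libraries. The 2 genes most like Lcn2 were Slamf1 (0.90) and Itga1 (0.93), those most like Hp were Adora2a (0.24) and Pilrb2 (0.32), those most like Cp were Trpm2 (0.23) and Nupr1 (0.28), and those most like Slpi were H2-Oa (0.34) and Ptgs2 (0.35). All of these points share the same 6 libraries.

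**Figure D3:**
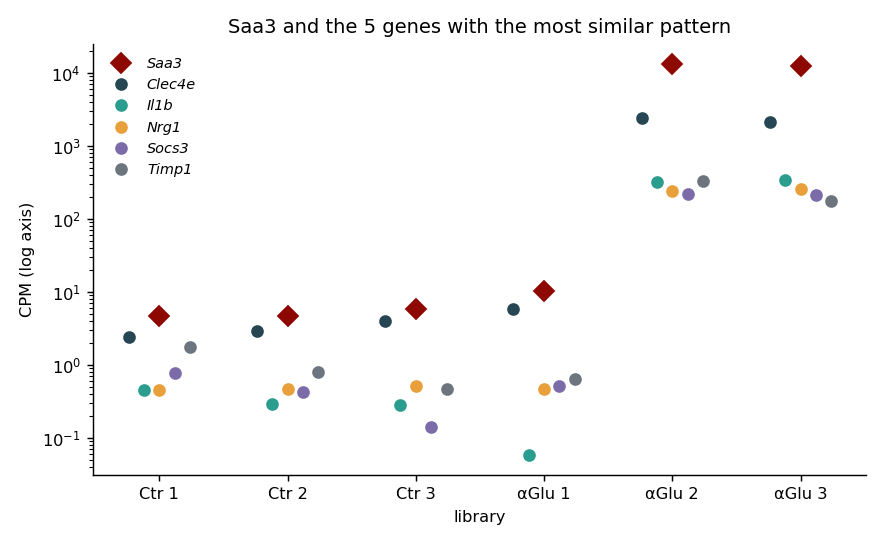
CPM (log axis) of Saa3 and of the 5 genes with the most similar pattern in each of the 6 libraries. The 6 genes are high in αGlu 2 and αGlu 3 together, and Clec4e stands there at 2387 and 2145 CPM.

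The surrounding pathway was read from 5 lists of 90 genes that hold none of the 8, of which 49 were tested. edgeR's quasi-likelihood test called 0 of them, while 18 higher and 6 lower had an unadjusted p under 0.05, beside 12.7% and 11.9% of all genes tested. limma-voom called 0. DESeq2, run on all genes with a read, called 19 higher and 5 lower in the lists. edgeR without αGlu 1 called 25 higher and 11 lower of 55. The backgrounds for those calls were 4.21% higher and 3.92% lower of all genes with DESeq2, and 8.05% higher and 10.5% lower without αGlu 1. Some higher calls lay outside the 49, and their genes are named after their values were seen. They were Serpina3n, Fpr1 and Fpr2 with DESeq2, and also Orm2 and Il1r2 without αGlu 1. In the latter fit these genes passed the filter through αGlu 2 and αGlu 3, so nothing is read from their calls. The values below are therefore descriptions in the fit to all 6 libraries.

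The other positive acute phase proteins lay mostly higher in αGlu. Of 30 genes, 10 had no read in any library and 12 were tested, 9 of them with a fold change above 0 on the log2 scale and 3 below. Their median log2 fold change was 2.71, beside 0.02 over all genes tested, and the groups did not overlap in 5 that were higher and 2 that were lower, beside 14.2% and 15.9% of all genes. C3, the central complement component and the gene with the highest mean CPM of the list, had 139, 179 and 247 CPM in Ctr and 523, 3726 and 3748 CPM in αGlu. Here αGlu 1 was also above all Ctr libraries, and so it was for Cfb (complement factor B) and Serpina3g (a protease inhibitor). Cfb had 1.41, 9.32 and 13.5 CPM in Ctr and 93.1, 1120 and 699 CPM in αGlu. Serpina3g had 2.32, 3.55 and 5.01 CPM in Ctr and 16.1, 149 and 164 CPM in αGlu. Serpina3g belongs to a multigene family, and reads shared between its members were not examined. Their log2 fold changes were 3.82 ± 0.79, 6.30 ± 1.28 and 4.92 ± 0.94, each at an adjusted p of 0.149 (edgeR's quasi-likelihood test, Benjamini-Hochberg). Without αGlu 1 the adjusted p was 7.52e-05 for C3, 0.00122 for Cfb and 4.46e-05 for Serpina3g in the same edgeR test. That library was left out because of its values in these same data, so these p-values are descriptions. In the fit without αGlu 1, 10 of 15 genes of the list were called higher and 1 lower. With DESeq2 8 were called higher and 1 lower. Orm2 and Serpina3n, not among the 12 and named after their values were seen, were among the 10. Serpina3n was also among the 8.

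The negative acute phase proteins, which the liver makes less of during the response, had the opposite sign. Of 10 genes 6 had no read and only 2 were tested. Trf, the iron carrier transferrin, had 1049, 680 and 682 CPM in Ctr and 426, 119 and 147 CPM in αGlu. Rbp4, the retinol carrier, had 8.77, 4.93 and 3.25 CPM in Ctr and 1.89, 0.0944 and 0.220 CPM in αGlu. Both had every αGlu library below every Ctr library. The log2 fold changes were -1.80 ± 0.53 (adjusted p 0.160) for Trf and -3.06 ± 1.05 (adjusted p 0.172) for Rbp4 in edgeR's quasi-likelihood test. Without αGlu 1, edgeR called both lower, at adjusted p of 0.000517 and 0.00160. The iron-binding Trf and the siderophore-binding Lcn2 thus had opposite signs.

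The receptors of the inducing cytokines showed no common direction. The median log2 fold change of the 9 tested of 12 was -0.12. Il1r1, the signaling receptor of IL-1, had 3.09, 3.01 and 2.78 CPM in Ctr and 2.18, 39.1 and 44.0 CPM in αGlu, with αGlu 1 below all Ctr libraries as for Lcn2 and Hp. Its log2 fold change was 3.27 ± 0.99 (edgeR adjusted p 0.160), and that of its co-receptor Il1rap was 1.69 ± 0.54 (0.163). Il11ra1, an IL-11 receptor chain, had -1.04 ± 0.41 (0.194). The receptor with the highest mean CPM was Tnfrsf1b, a TNF receptor, at -0.12 ± 0.16 (0.626). Without αGlu 1, edgeR called 3 higher and 3 lower of 10, and the adjusted p of Il1r1 was 7.97e-06. Il1r2, not among the 9 and named after its values were seen, was among those called higher.

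Among the transcription factors and regulators of acute phase genes, 14 of 16 were tested with a median log2 fold change of 0.65. Socs3, which inhibits STAT3 signaling rather than carrying it, had 0.772, 0.418 and 0.139 CPM in Ctr and 0.516, 221 and 216 CPM in αGlu. The αGlu 1 value lay within the Ctr range. The log2 fold change was 8.34 ± 2.10 (edgeR adjusted p 0.156), and 8.92 without αGlu 1. Nfkbiz, an NF-κB cofactor that Lcn2 induction is known to use, had 2.32 ± 0.61 (0.156), and Batf, an AP-1 family factor, 2.35 ± 0.62 (0.157). Atf3, a stress-induced factor with the highest mean CPM of the list, had -1.12 ± 0.40 (0.178). The 4 C/EBP genes of the list were chosen for naming after their values were seen, because of the promoter letters. Cebpa had 149, 139 and 128 CPM in Ctr and 116, 35.4 and 23.03 CPM in αGlu, and its fitted change was -1.26 ± 0.59 on the log2 scale. Cebpb had 22.2, 27.3 and 21.6 CPM in Ctr and 22.1, 80.8 and 52.8 CPM in αGlu, at 1.13 ± 0.44. Cebpd had 1.82, 1.71 and 1.48 CPM in Ctr and 0.860, 4.47 and 7.59 CPM in αGlu, at 1.37 ± 0.70. Cebpg had 77.4, 73.4 and 82.5 CPM in Ctr and 83.2, 65.0 and 65.1 CPM in αGlu, at -0.13 ± 0.12 (edgeR adjusted p 0.506), and -0.26 without αGlu 1, where it was not called. For Cebpa, Cebpb and Cebpd the adjusted p in edgeR was 0.240, 0.194 and 0.263, and 0.000384, 0.00177 and 0.00324 without αGlu 1, where Cebpa was called lower and Cebpb and Cebpd higher. Over the list, edgeR without αGlu 1 called 6 higher and 2 lower of 14.

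The receptors and partners of the proteins were mixed, with 12 of 22 tested and a median log2 fold change of 0.19. Tlr2, a receptor reported to respond to serum amyloid A, had 2.05 ± 0.64 (edgeR adjusted p 0.161), and the Fc receptor Fcgr2b 1.04 ± 0.37 (0.178). Scarb1, the scavenger receptor that binds HDL and serum amyloid A, had -0.72 ± 0.19 (0.156). Cd36, another scavenger receptor and the gene with the highest mean CPM of the list, had 2897, 2460 and 2334 CPM in Ctr and 2413, 453 and 300 CPM in αGlu, where αGlu 1 lay within the Ctr range. Its log2 fold change was -1.28 ± 0.79 (edgeR adjusted p 0.334), and -2.77 without αGlu 1. The formyl peptide receptors Fpr2, a serum amyloid A receptor, and Fpr1 did not pass the filter and were chosen after their values were seen. Fpr2 had 0.227, 0.167 and 0.139 CPM in Ctr and 0, 94.0 and 82.0 CPM in αGlu. Fpr1 had 0.409, 0.0836 and 0.0464 CPM in Ctr and 0, 72.2 and 74.0 CPM in αGlu. Both repeated the layout of Lcn2, with 0 reads in αGlu 1. Without αGlu 1, edgeR called 6 higher and 3 lower of the 14 tested. Fpr1 and Fpr2 were among those called higher, having passed the filter of that fit through αGlu 2 and αGlu 3.

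**Figure D4:**
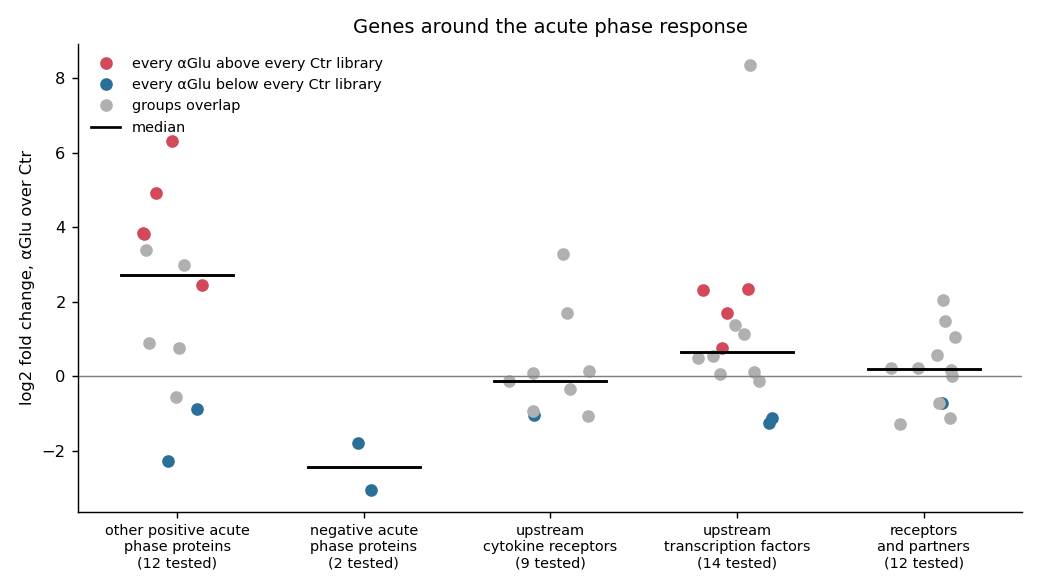
Log2 fold change, αGlu over Ctr, of each tested gene in the 5 pathway lists, with 1 point per gene, colours for whether the groups overlap, and a bar at each list's median. The other positive acute phase proteins have a median of 2.71 and the 2 negative ones lie below 0, while the medians of the remaining lists lie between -0.12 and 0.65.

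The libraries carried the markers of Mφs throughout. All 10 Mφ markers averaged above 1 CPM, and their summed level was 12234 to 13756 CPM in Ctr and 13058, 17036 and 19551 CPM in αGlu 1, 2 and 3, with Lyz2 as the top gene. Since Lcn2, Hp and Slpi are also stored in or made by neutrophils, and Saa1, Saa2, Hp and Cp by hepatocytes, the markers of both were read beside them. The 15 neutrophil markers summed to 129.6 to 211.4 CPM in Ctr and to 240.7, 574 and 639 CPM in αGlu 1, 2 and 3. Most of the αGlu sum was Csf3r, a receptor gene, at 183, 536 and 607 CPM, and without it the sum ranged from 26.99 to 70.3 CPM over the 6 libraries. Ly6g and Retnlg were at 0 in every library. The other members went in different directions in αGlu 2 and αGlu 3, and those named next were chosen after their values were seen. The granule genes Ltf and Ngp were at 0 in both libraries and at 0.139 to 1.63 CPM in the other 4, and Mpo was at 0.0944 and 0.0367 CPM, below all others. Chil1 had 3.62 and 2.90 CPM and at most 0.0464 CPM elsewhere, and S100a8 had 2.11 and 1.32 CPM against 0.510 to 0.909 CPM elsewhere. S100a9 went the other way from S100a8, with 0.0630 and 0 CPM in αGlu 2 and αGlu 3 against 0.115 to 0.954 CPM elsewhere. Mmp8, at 21.7 to 63.0 CPM over the 6 libraries, overlapped between the groups. Of 10 hepatocyte markers 8 were at 0 in all libraries, Alb and Ttr among them, and the sum did not exceed 0.182 CPM.

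Of the remaining lists, the endothelial one had the highest sum. Epithelial markers, read because Lcn2 and Slpi are made by epithelia, were at 0 for 5 of 8 genes, and summed to 1.63 to 2.83 CPM in Ctr and 1.15, 6.36 and 5.35 CPM in αGlu, with Cdh1 as the top gene. Fibroblast markers summed to 3.90 to 11.3 CPM in Ctr and 4.01, 2.24 and 2.79 CPM in αGlu, and Postn had the highest mean over the 6 libraries although not in each of them. Endothelial markers summed to 129 to 186 CPM in Ctr and 152, 76.3 and 80.3 CPM in αGlu. Vwf, with the highest mean, had 81.1 to 168 CPM in Ctr and 93.7, 30.3 and 23.8 CPM in αGlu. Kdr and Pecam1, named after their values were seen, did not follow it. Kdr had 14.5 to 44.6 CPM in Ctr and 55.98, 29.2 and 30.5 CPM in αGlu, and Pecam1 had 3.27 to 3.43 CPM in Ctr and 2.41, 16.3 and 25.7 CPM in αGlu. Lymphocyte markers did not exceed 0.504 CPM, with Klrb1c as the top gene. In αGlu 2 and αGlu 3, the libraries with high Saa3, the Mφ, neutrophil and epithelial sums were higher than in the other 4 libraries. The endothelial and fibroblast sums were lower. Csf3r carried the neutrophil rise and Cdh1 the epithelial one. Among the Mφ markers, Cd68 and Mertk, named after their values were seen, were lower there, and the other members higher. Cd68 had 1237 and 1144 CPM there, and 1809 to 2063 CPM elsewhere. Mertk had 77.7 and 80.5 CPM there, and 91.1 to 102.8 CPM elsewhere. The part of these cell types in the result was not tested.

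**Figure D5:**
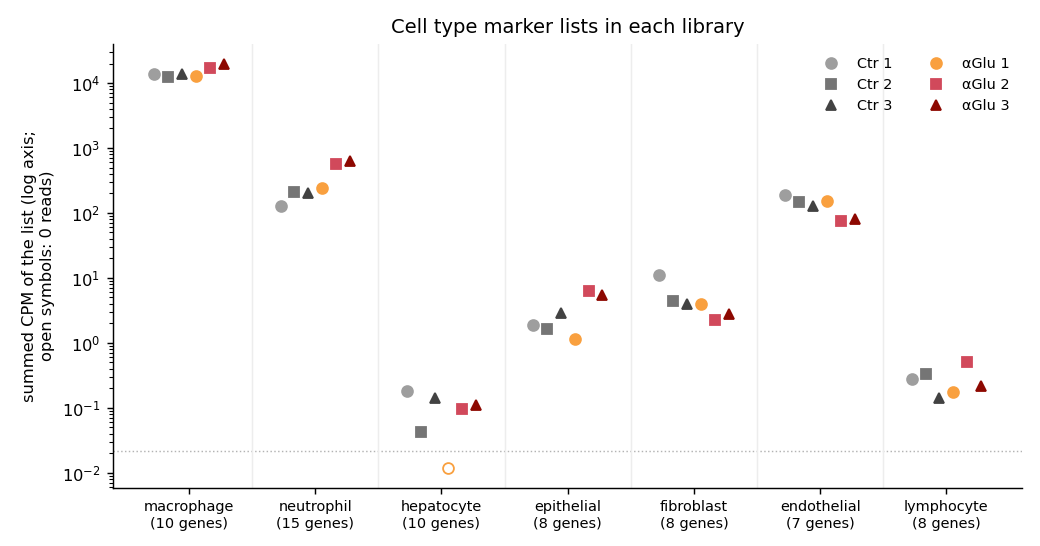
Summed CPM (log axis) of 7 cell type marker lists in each library, with 1 symbol per library and open symbols for 0 reads. The Mφ list lies at 12234 to 19551 CPM, and the hepatocyte list lies at or below 0.182 CPM in every library.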

How the data were processed

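mRNA was sequenced from 3 Ctr and 3 αGlu libraries, grouped by their titles, after stranded library preparation. Reads were processed by the authors in the RNA-seq Analysis Portal of QIAGEN. The labels name the build GRCm38. The aligner and annotation are not given in the sources used here. The authors deposited, for each gene and library, whole-number counts of exon reads without normalization, RPKM and TPM values scaled by length and depth, and a CPM column, a signal for which the authors divided counts by an effective library size. Every value column matched a library, and RPKM and the deposited signal were not used.

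Counts were analysed with edgeR 4.0.16 in R 4.3.3. Genes were kept by filterByExpr (minimum count 10, minimum total 15), scaled with TMM and fitted with a quasi-likelihood model on the group alone. The SE given with an edgeR fold change is the size of the log2 fold change divided by the square root of its F statistic. Two-sided p-values were adjusted by Benjamini-Hochberg over all genes tested, with thresholds of 0.1 for the adjusted p and of 1 for the size of the log2 fold change. A prior count of 2 was used for log2 CPM, and the authors' TPM values served for levels between genes. The fit was also run on simulated data. Their spread was that of the Ctr libraries, so that run does not cover the spread within αGlu. Total counts of 17912831 to 30386653 make 3 counts equal to 0.0944 to 0.172 CPM. All pairs of libraries within a group differed beyond sampling noise (chi-square per gene at least 19.8).

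Gene positions come from GENCODE M21 and promoters from RefSeq GRCm38.p6. The oligonucleotide sequences come from the study's list. Alternatives were DESeq2 1.42.0, limma-voom (limma 3.58.1), RLE factors, library size alone, other filters, no fold limit, the replicate number as a block and each library left out. The genes and lists were chosen with earlier results of these data known. Named were the 8 acute phase genes, the 3 tested genes with the smallest unadjusted p and the gene with the highest mean CPM of each pathway list, the 5 genes most like Saa3 and the 2 most like each other gene that passed the filter, and the top gene of each marker list. Any other gene is marked in the text as named with its values in view, or is given as at 0 in all libraries.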

Additional observations from a re-analysis of the deposited data

How the results depend on the processing

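Over all genes, the edgeR count of 0 calls stayed at 0 with limma-voom, RLE factors, unscaled library sizes, all genes kept, a minimum of 1 CPM in 3 libraries and no fold limit. It became 1117 with DESeq2 (579 higher, 538 lower) and ranged from 0 to 2290 (993 higher, 1297 lower) when each library was left out in turn, the 2290 arising without αGlu 1 and 0 with any other library left out. For the pathway lists, the 0 calls became 24 with DESeq2 (19 higher, 5 lower) and ranged from 0 to 36 (25 higher, 11 lower) with each library left out, again 36 without αGlu 1 only. The cause was not tested.

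The labels number the libraries 1 to 3 in both groups without saying that a number marks a shared animal or day, and deviations of same-numbered libraries correlated at 0.08, 0.06 and 0.15. With the replicate number as a block, 17 genes were called (9 higher, 8 lower), and 1 gene of the pathway lists, Cfb, was called higher. Every αGlu library did correlate best with the Ctr library of its own number, which is a hint only. The paper compared the fragment between transfected groups with a paired test, but does not state pairing for these libraries. The unpaired main fit is therefore a choice that the design does not settle.

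The fold changes of Saa3, Lcn2, Hp, Cp and Slpi kept their sign under every alternative in which they were fitted. They ran from 7.48 to 11.33, 4.44 to 7.20, 2.95 to 4.25, 3.44 to 4.59 and 3.50 to 4.62 on the log2 scale. Every alternative kept αGlu 2, αGlu 3 or both, where these genes were high, so the kept sign is a description and no support. Lcn2 did not pass the minimum of 1 CPM in 3 libraries and has no value there. With a prior count of 0.5, the 5 genes most like Saa3 were the same, and 1 of 2 was kept for Lcn2 and for Hp. Depth limits Ptx3 and Saa2, with at most 9 reads in any library.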
